A study of Homo sapiens with 18 samples.

Results

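The YAP-TAZ target genes examined here were CCN1, CCN2, AMOTL2, ANKRD1, AXL, NT5E, F3, AJUBA, LATS2 and TEAD1. They were the rows of 2 gene count tables whose symbol was on this list of 10, and all 10 were found among the 60683 gene rows of each table. Poly(A) RNA of HCT-116 cells, a long-established line from a human colorectal carcinoma, was sequenced in 18 libraries, 3 in each of 6 groups. The ACTB table held Actin KO cells carrying an empty construct, Actin KO cells carrying wild-type actin (ACTB-WT), and Actin KO cells carrying actin with the H73A change (ACTB-mut), so that all 3 of its groups shared the actin knockout. The SETD3 table held a control (SETD3 CT) and 2 knockouts of SETD3, the enzyme that methylates actin at the histidine that H73A removes (SETD3 KO1 and SETD3 KO2). Neither single clones nor separate cultures are stated in the labels, so p-values measure only the spread between the deposited samples, which may be technical. One library, SETD3 KO2 replicate 3, carries the cell line label HCT-117 and was kept in its group.

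YAP and TAZ (the product of WWTR1) are transcriptional coactivators held in check by the Hippo pathway, in which the MST kinases activate the LATS kinases and LATS phosphorylation keeps YAP and TAZ out of the nucleus. In the nucleus they bind DNA through the TEAD factors, often beside AP-1 factors, and raise genes of cell growth, matrix and adhesion. The state of the actin cytoskeleton is a well known input to YAP and TAZ, and their activity is often raised in colorectal cancer. Among the 10 genes, CCN1 and CCN2 encode secreted matrix-associated proteins, AXL, NT5E and F3 encode cell surface proteins, AMOTL2, AJUBA and LATS2 encode proteins that feed back on the Hippo pathway, ANKRD1 encodes a nuclear and sarcomeric ankyrin-repeat protein, and TEAD1 is itself a DNA-binding partner of YAP and TAZ.

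RefSeq promoter windows (GRCh38.p14, the 250 bases before a start) were at hand for 8 of the 10 genes, in 11 entries. The letters GGAATG, the core of the TEAD motif, were searched on both strands and occurred in 5 of the 11 entries, belonging to CCN2, ANKRD1, AMOTL2, AJUBA and AXL, against 11.9% of 35116 promoter windows of the same length. The AP-1 letters TGANTCA occurred in the windows of ANKRD1 and F3, against 6.57% of all windows. Stretches of 4 windows, ending where the annotated exons begin, are shown because they carry these motifs in different numbers and belong to the genes described most closely below. Capitals mark the TEAD letters in CCN2 and ANKRD1 and the AP-1 letters in F3, and the AXL stretch at its first start held neither. A match is a description of letters and not a measured binding site.
CCN2, chr6:131951374-131951622, minus strand: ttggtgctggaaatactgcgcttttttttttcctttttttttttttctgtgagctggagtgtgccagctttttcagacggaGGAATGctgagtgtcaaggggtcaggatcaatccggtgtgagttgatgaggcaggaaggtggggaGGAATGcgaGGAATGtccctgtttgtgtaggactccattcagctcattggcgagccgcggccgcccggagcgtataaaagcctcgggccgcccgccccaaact
ANKRD1, chr10:90921277-90921337, minus strand: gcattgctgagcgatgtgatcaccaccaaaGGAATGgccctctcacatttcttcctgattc
F3, chr1:94541801-94542009, minus strand: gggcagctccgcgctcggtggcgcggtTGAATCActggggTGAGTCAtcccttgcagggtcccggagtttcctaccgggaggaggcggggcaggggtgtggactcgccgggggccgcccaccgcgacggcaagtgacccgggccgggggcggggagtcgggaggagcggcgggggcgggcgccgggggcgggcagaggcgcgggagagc
AXL, chr19:41218973-41219202, plus strand: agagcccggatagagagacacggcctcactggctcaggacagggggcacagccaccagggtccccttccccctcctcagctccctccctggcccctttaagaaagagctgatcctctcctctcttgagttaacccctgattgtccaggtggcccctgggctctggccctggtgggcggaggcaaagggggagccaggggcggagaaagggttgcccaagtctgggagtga

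Library depth ranged from 5144333 to 11271830 counts in the ACTB table, where the ACTB-WT libraries were the shallowest on average, and from 3389502 to 11652897 in the SETD3 table. SETD3 KO2 replicate 1 stood apart: it was the shallowest library, 100 of 7316 genes (1.37%) with at least 10 CPM in the other replicates of its group had no count there, and 5 of the 10 target genes had none. In the other 17 libraries between 2 and 34 genes were at 0 in this way. CPM here means counts relative to library size, scaled by the TMM factors of a table. ACTB itself was at 14.9 to 24.9 CPM in the Actin KO libraries, 23.2 to 31.0 in ACTB-WT and 32.04 to 47.1 in ACTB-mut, against 662 CPM or more in every SETD3 table library. Whether transcripts of the constructs count towards the ACTB row is not given in the sources used here. SETD3 RNA was at 21.8 ± 12.3 CPM (SD, n = 3) in the control, 10.1 ± 6.10 CPM in KO1 and 21.9 ± 6.08 CPM in KO2, with log2 differences from the control of -1.12 (SE 0.52, adjusted p = 0.879, edgeR) and 0.01 (SE 0.51, adjusted p = 1, edgeR), so the RNA level does not set the libraries labelled KO2 apart. The 10 colon epithelial markers summed to at least 7949 CPM in every library, while blood markers reached at most 0.799 CPM, endothelial markers 2.23 CPM, fibroblast markers 15.3 CPM and liver or kidney markers 16.9 CPM. Of the 10 colon markers only 6 had a mean of at least 1 CPM in a group, or 7 in SETD3 KO2. Between 1 and 3 of them had no count in a group, so the sum rests on part of the list. The colon markers summed to 7949 to 11298 CPM in Actin KO, 11160 to 13415 CPM in ACTB-WT and 9508 to 10316 CPM in ACTB-mut. All 6 tested colon markers had lower fitted levels in ACTB-mut than in ACTB-WT (median log2 difference -0.33), with 0 called in edgeR, 1 at an unadjusted p below 0.05, 1 called in DESeq2 and 0 in limma-voom, and their part in the results below was not tested.

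None of the YAP-TAZ target genes passed the test in any of the 6 comparisons. A gene was called when its Benjamini-Hochberg adjusted p over all genes tested in edgeR's quasi-likelihood test was below 0.05, and 9 of the 10 genes had enough counts to be tested in each table; CCN2 did not. In the ACTB table the shares of all 13882 tested genes called were 1.12% for ACTB-WT against Actin KO, 0.922% for ACTB-mut against Actin KO and 1.24% for ACTB-mut against ACTB-WT. In the SETD3 table they were 0.0144% for KO1 against CT, 0.0578% for KO2 against CT and 0.0289% for KO2 against KO1, of 13846 genes. At an unadjusted p below 0.05 there were 3 target genes in ACTB-WT against Actin KO (11.2% of all genes), 2 in ACTB-mut against ACTB-WT (12% of all genes) and 0 in ACTB-mut against Actin KO (11.5% of all genes). There were 0 in KO1 against CT, KO2 against CT and KO2 against KO1, where 5.75%, 4.95% and 4.84% of all genes had such a p. DESeq2 called 1 target gene in ACTB-WT against Actin KO, 2 in ACTB-mut against ACTB-WT and 0 elsewhere, and limma-voom called 0 in every comparison. DESeq2 also called more genes than edgeR over all genes. Its totals were 428 for ACTB-WT against Actin KO, 393 for ACTB-mut against Actin KO and 517 for ACTB-mut against ACTB-WT. The edgeR totals in that order were 155, 128 and 172.

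**Figure D1:**
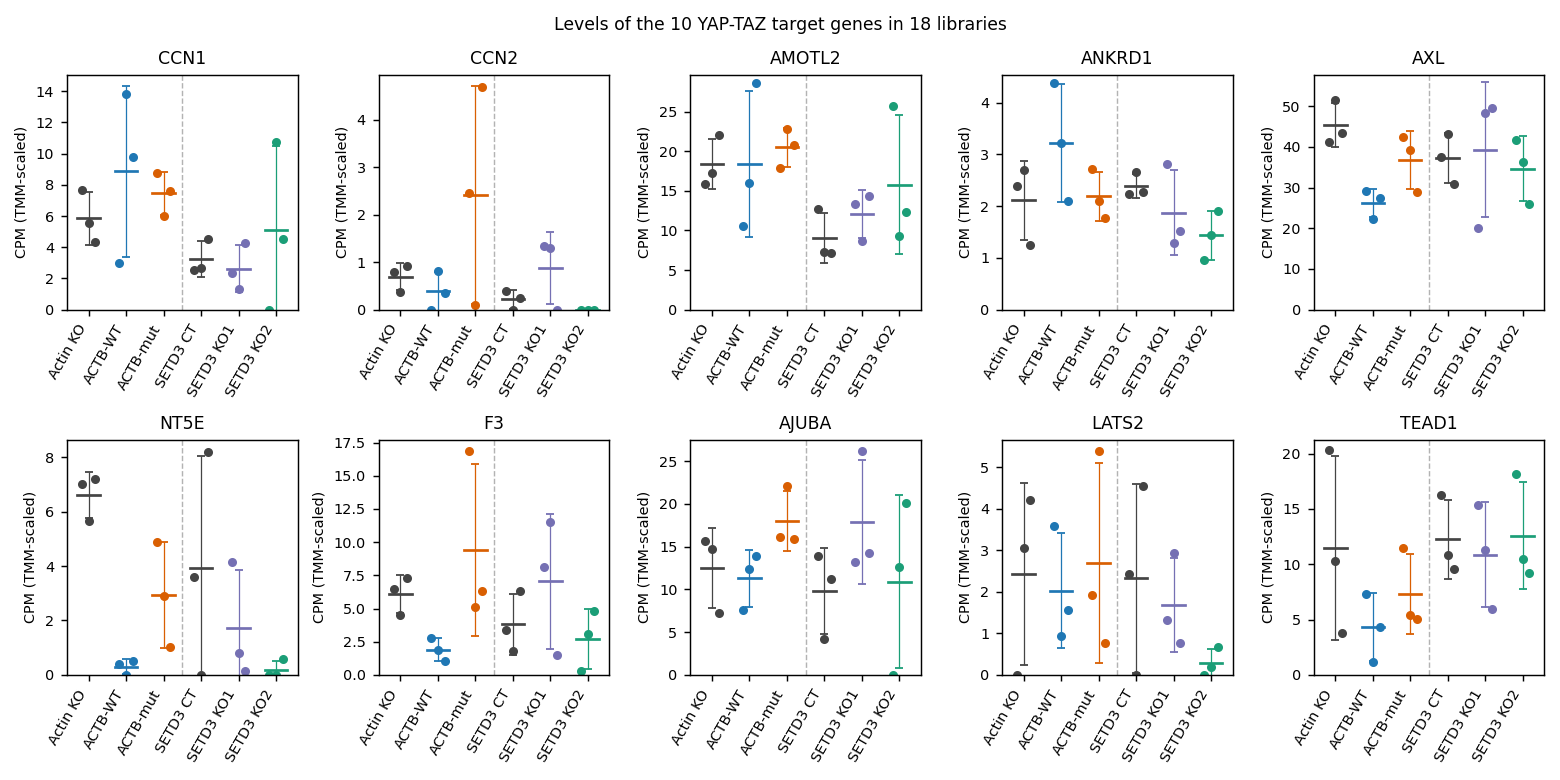
CPM (TMM-scaled, linear axis) of the 10 YAP-TAZ target genes in each of 18 libraries, with points for libraries, horizontal bars for group means and vertical bars for 1 SD (n = 3, cut at 0); the dashed line separates the 2 tables, which were normalised apart. The 3 ACTB-WT points lie below the 3 Actin KO points for NT5E, AXL and F3, and the points of most other genes overlap between groups.

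Of the surface proteins, NT5E, the ecto-5'-nucleotidase CD73 that makes adenosine outside the cell, had the largest fitted differences in the ACTB table. NT5E was at 7.03, 5.65 and 7.19 CPM in the Actin KO libraries, at 0.398, 0 and 0.523 CPM in ACTB-WT and at 4.90, 2.90 and 1.01 CPM in ACTB-mut. All ACTB-WT libraries lay below all libraries of both other groups, with 5 counts in total against 162 and 93, and all ACTB-mut libraries lay below the Actin KO libraries. The fitted log2 difference was -4.43 (SE 1.11, 95% interval -6.80 to -2.05, adjusted p = 0.0844, edgeR) for ACTB-WT against Actin KO, a 21.5-fold lower level, and moved to -3.80 without ACTB-WT replicate 2 and to -5.13 without ACTB-WT replicate 3. It was 3.26 (SE 1.08, interval 0.96 to 5.57, adjusted p = 0.202, edgeR) for ACTB-mut against ACTB-WT and -1.16 (SE 0.92, interval -3.12 to 0.79, adjusted p = 0.728, edgeR) for ACTB-mut against Actin KO. These comparisons share their libraries in pairs, so the first and second both rest on the same 3 ACTB-WT libraries. The adjusted p of ACTB-WT against Actin KO was 0.0251 in edgeR without the filter on low counts (log2 difference -4.44) and 0.0011 in DESeq2 (-4.51), and ran up to 0.229 over the other alternatives. For ACTB-mut against ACTB-WT it was 0.0377 in DESeq2 (3.33) and up to 0.494 over the others, and the log2 difference was 2.67 without ACTB-mut replicate 1, 2.64 without ACTB-WT replicate 2 and 3.96 without ACTB-WT replicate 3.

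F3, tissue factor, the cell surface starter of blood coagulation, was at 6.50, 4.54 and 7.30 CPM in Actin KO, 2.78, 1.88 and 1.05 CPM in ACTB-WT and 16.9, 5.09 and 6.34 CPM in ACTB-mut. The ACTB-WT libraries were again below all others, and ACTB-mut replicate 1 was more than the rest of its group. The log2 difference was 2.31 (SE 0.68, interval 0.87 to 3.75, adjusted p = 0.132, edgeR) for ACTB-mut against ACTB-WT, a 4.96-fold higher level. Without ACTB-mut replicate 1 it was 1.58 (adjusted p = 0.560, edgeR), and DESeq2 gave 2.30 (adjusted p = 0.0237). It was -1.68 (SE 0.67, adjusted p = 0.328, edgeR) for ACTB-WT against Actin KO and 0.63 (SE 0.63, adjusted p = 0.811, edgeR) for ACTB-mut against Actin KO.

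AXL, a receptor tyrosine kinase for GAS6, was the most abundant of the 10 genes and the most precisely measured. Its levels were 41.1, 51.4 and 43.4 CPM in Actin KO, 29.03, 22.3 and 27.4 CPM in ACTB-WT and 42.5, 39.2 and 28.8 CPM in ACTB-mut. ACTB-WT lay below Actin KO in every library, with the highest ACTB-WT library just above the lowest ACTB-mut library. The log2 difference was -0.79 (SE 0.24, interval -1.31 to -0.27, adjusted p = 0.177, edgeR) for ACTB-WT against Actin KO, a 1.73-fold lower level, 0.49 (SE 0.24, adjusted p = 0.437) for ACTB-mut against ACTB-WT and -0.30 (SE 0.24, adjusted p = 0.735) for ACTB-mut against Actin KO. Its values were not whole numbers in any of the 18 libraries, so RSEM divided reads between this gene and others, and an antisense gene, AC011510.1, overlaps its exons; the strand setting is not given in the sources used here, so the 2 cannot be told apart.

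Over the 9 tested genes, 3 had ACTB-WT libraries that did not overlap the Actin KO libraries, all lower (NT5E, F3 and AXL), against 9.08% of all genes lower in this way and 16.7% in either direction. In ACTB-mut against ACTB-WT 3 genes did not overlap, all higher (NT5E, F3 and AJUBA), against 9.93% of all genes higher and 18.1% in either direction. In ACTB-mut against Actin KO 1 gene was higher (AJUBA) and 1 lower (NT5E), against 9.31% of all genes higher, 9.16% lower and 18.5% in either direction. The median log2 difference of the 9 genes was -0.27 for ACTB-WT against Actin KO, 0.15 for ACTB-mut against Actin KO and 0.49 for ACTB-mut against ACTB-WT, beside -0.01, 0.03 and 0.02 over all tested genes. Counting group means over all 10 genes, ACTB-WT was the lowest group for 8, Actin KO for 2 and ACTB-mut for 0. How often ACTB-WT was lowest over all genes was not counted, so this order is a description only. The 8 include AMOTL2, nearly tied between ACTB-WT and Actin KO (log2 difference -0.0034), and CCN2, with 8 against 17 counts.

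**Figure D2:**
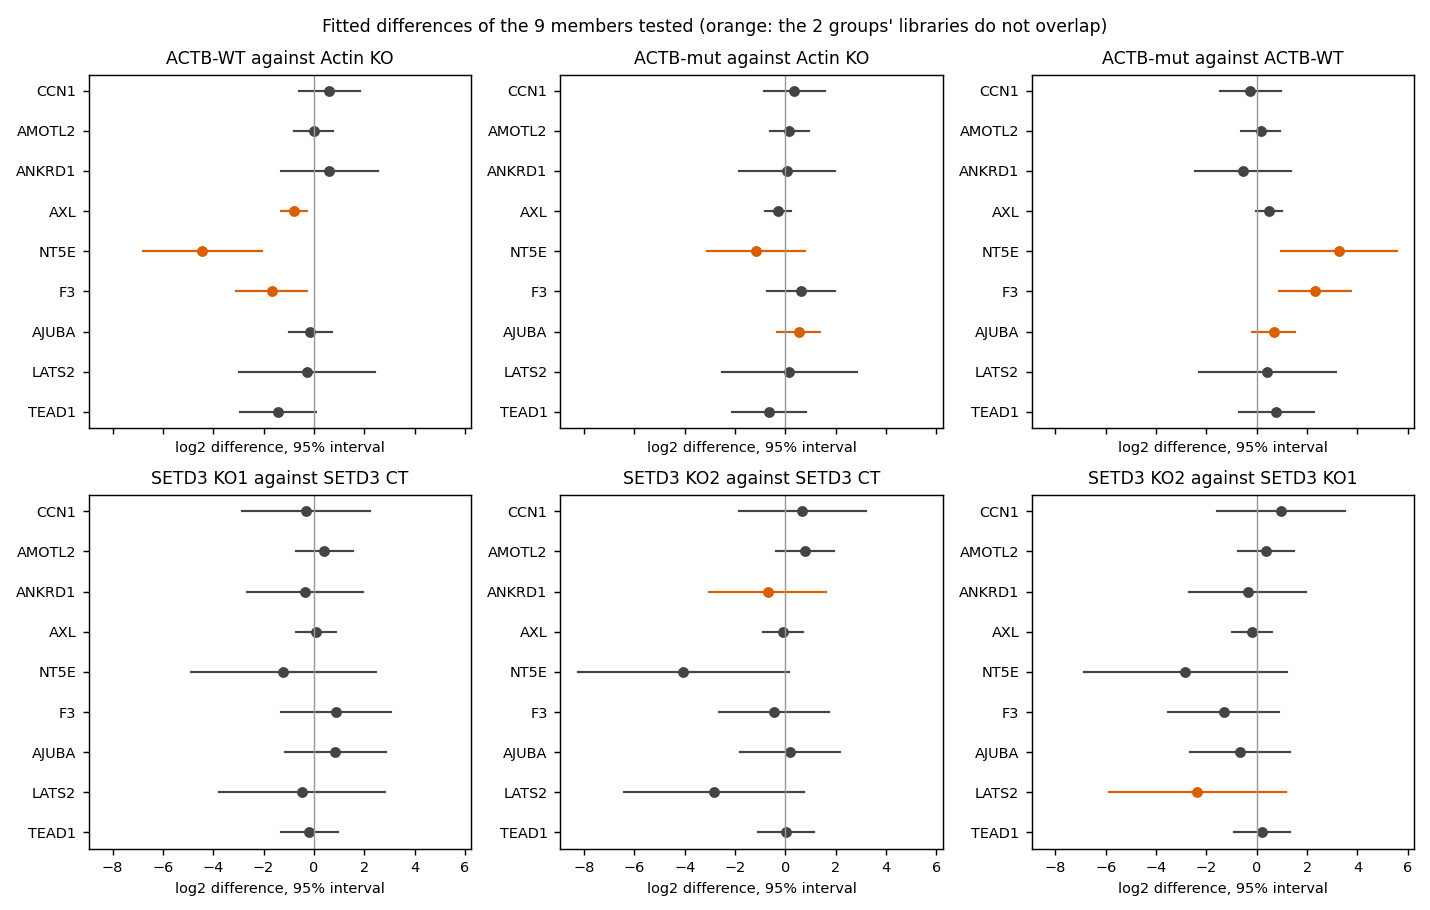
Fitted log2 differences (horizontal axis) of the 9 tested genes in each of the 6 comparisons, with 95% intervals from the edgeR fit; orange marks genes whose libraries do not overlap between the groups compared. NT5E, F3 and AXL lie to the left of 0 in ACTB-WT against Actin KO, with intervals that leave out 0 before adjustment over all genes, and the SETD3 table intervals are wider for all of the 9 genes except TEAD1.

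The matrix-associated genes gave no such separation. CCN1, with CCN2 a common readout of YAP and TAZ activity, was at 7.69, 5.52 and 4.34 CPM in Actin KO, 2.98, 13.8 and 9.76 CPM in ACTB-WT and 8.75, 5.99 and 7.61 CPM in ACTB-mut. The ACTB-WT group held both the lowest and the highest of these 9 libraries. The log2 difference was 0.61 (SE 0.57, interval -0.61 to 1.82, adjusted p = 0.798, edgeR) for ACTB-WT against Actin KO, 0.35 (SE 0.57, adjusted p = 0.907) for ACTB-mut against Actin KO and -0.26 (SE 0.57, adjusted p = 0.936) for ACTB-mut against ACTB-WT. CCN2, the gene with 3 TEAD matches above, was hardly detected, with 17 counts over the 3 Actin KO libraries, 8 over ACTB-WT and 66 over ACTB-mut. Its levels were 0.796, 0.368 and 0.913 CPM in Actin KO, 0, 0.806 and 0.349 CPM in ACTB-WT and 2.45, 0.0998 and 4.69 CPM in ACTB-mut. ACTB-mut thus held the 2 highest libraries and one of the lowest, with 28, 1 and 37 counts. Fitted without a filter on low counts, the log2 difference of ACTB-mut against ACTB-WT was 2.56 (SE 1.72, adjusted p = 0.632, edgeR). CCN2 shares exon bases with the antisense gene AL133346.1, and the strand setting is not given in the sources used here. Unlike those of AXL, the CCN2 values were whole numbers in all 18 libraries, so no division of its reads by RSEM was seen. Whether antisense reads are among its counts cannot be told here.

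None of the genes that feed back on the pathway passed the test, and in the ACTB table AJUBA alone among them separated groups. AMOTL2, an angiomotin family member that binds YAP, was at 15.9, 17.3 and 22.0 CPM in Actin KO, 10.5, 16.0 and 28.6 CPM in ACTB-WT and 17.9, 22.9 and 20.8 CPM in ACTB-mut. The ACTB-WT libraries spanned the range of both other groups, and no AMOTL2 difference was larger than 0.16 on the log2 scale (adjusted p of at least 0.938, edgeR). AJUBA, a LIM protein that can sequester LATS kinases, was at 15.7, 14.7 and 7.19 CPM in Actin KO, 7.56, 12.4 and 13.9 CPM in ACTB-WT and 16.1, 22.1 and 15.9 CPM in ACTB-mut. Each ACTB-mut library was above all libraries of the other 2 groups, with log2 differences of 0.52 (SE 0.40, adjusted p = 0.709, edgeR) over Actin KO and 0.67 (SE 0.40, adjusted p = 0.561) over ACTB-WT. LATS2, one of the LATS kinases, was at 0, 3.07 and 4.22 CPM in Actin KO, 3.58, 0.941 and 1.57 CPM in ACTB-WT and 1.92, 5.39 and 0.761 CPM in ACTB-mut. The groups overlapped fully, and the 95% interval of ACTB-mut against ACTB-WT ran from -2.29 to 3.13.

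Of the nuclear proteins, ANKRD1 was at 2.39, 2.70 and 1.26 CPM in Actin KO, 4.37, 3.22 and 2.09 CPM in ACTB-WT and 2.71, 2.10 and 1.78 CPM in ACTB-mut. The groups overlapped, and the log2 difference of ACTB-WT against Actin KO was 0.61 (SE 0.91, adjusted p = 0.902, edgeR). TEAD1 was at 20.3, 10.3 and 3.77 CPM in Actin KO, 7.36, 1.21 and 4.36 CPM in ACTB-WT and 11.5, 5.39 and 5.07 CPM in ACTB-mut. Actin KO alone spread from 3.77 to 20.3 CPM and so covered most of the other libraries. The TEAD1 difference was -1.42 (SE 0.71, interval -2.94 to 0.09, adjusted p = 0.484, edgeR) for ACTB-WT against Actin KO and 0.78 (SE 0.70, adjusted p = 0.767) for ACTB-mut against ACTB-WT.

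In the SETD3 table the replicate variation was larger for 8 of the 9 tested genes, TEAD1 being the exception, and none was called. The interval of every tested target gene included 0 in all 3 comparisons, with adjusted p of at least 0.998 (edgeR). The member medians were -0.18 for KO1 against CT, -0.11 for KO2 against CT and -0.36 for KO2 against KO1, beside -0.02, -0.01 and 0.01 over all tested genes. Libraries did not overlap for 0 target genes in KO1 against CT (13.2% of all genes), for ANKRD1 in KO2 against CT (lower, 5.28% of all genes lower in this way and 10.2% in either direction) and for LATS2 in KO2 against KO1 (lower, 5.76% of all genes lower and 11.9% in either direction). Because KO2 replicate 1 stood apart, the differences of KO2 from CT are also given without it.

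NT5E was at 3.59, 0 and 8.21 CPM in SETD3 CT, 4.14, 0.822 and 0.152 CPM in KO1 and 0, 0 and 0.579 CPM in KO2. Both the control and KO1 held libraries near 0, so the groups overlapped, with the highest mean in CT and the lowest in KO2. The log2 difference of KO2 against CT was -4.05 (SE 1.94, interval -8.25 to 0.14, adjusted p = 1, edgeR) and -3.69 (SE 2.14) without KO2 replicate 1. It was -7.87 (SE 3.02) without KO2 replicate 3, the only KO2 library with NT5E counts, and -2.98 (SE 2.19) without CT replicate 3, -3.47 (SE 2.16) without KO2 replicate 2 and -4.62 (SE 1.76) without CT replicate 2. LATS2 was at 2.42, 0 and 4.55 CPM in CT, 1.33, 2.94 and 0.758 CPM in KO1 and 0, 0.181 and 0.662 CPM in KO2. The KO2 libraries were below all KO1 libraries, with a log2 difference of -2.37 (SE 1.63, adjusted p = 0.999, edgeR), and -1.95 (SE 1.78) without KO2 replicate 1. From CT, LATS2 in KO2 differed by -2.84 (SE 1.65) with and -2.43 (SE 1.82) without that library. Leaving out 1 library at a time, these differences ranged from -3.68 to -1.72 and from -4.16 to -1.95. CCN2 had 6 counts over the CT libraries (4, 0 and 2), 20 over KO1 (9, 11 and 0) and 0 over KO2. Both CT and KO1 thus held a library at 0, like every KO2 library. Setting the KO2 total to a floor of 3 counts gave an 8.02-fold difference from KO1 and a 2.31-fold difference from CT. These folds take the KO1 and CT totals as exact and leave out the spread between libraries, so they are not bounds. Without a filter on low counts the adjusted p was 0.837 against KO1 and 0.865 against CT (edgeR).

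The remaining target genes showed no separation between SETD3 groups beyond that of ANKRD1. ANKRD1 was at 2.23, 2.66 and 2.27 CPM in CT, 2.81, 1.29 and 1.52 CPM in KO1 and 0.955, 1.44 and 1.90 CPM in KO2. Its KO2 libraries were all below CT, with a log2 difference of -0.71 (SE 1.07, adjusted p = 1, edgeR) and of -0.50 (SE 1.199) without KO2 replicate 1, its lowest library. CCN1 was at 2.52, 2.66 and 4.55 CPM in CT, 2.37, 1.29 and 4.25 CPM in KO1 and 0, 10.7 and 4.55 CPM in KO2, so that KO2 held both the lowest and the highest library. The log2 difference of CCN1 in KO2 against CT was 0.67 (SE 1.17, adjusted p = 1, edgeR), and 1.23 (SE 0.87, adjusted p = 0.925) without KO2 replicate 1.

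F3 was at 3.39, 1.77 and 6.31 CPM in CT, 8.14, 11.5 and 1.52 CPM in KO1 and 0.318, 3.07 and 4.80 CPM in KO2. KO1 replicates 1 and 2 were the 2 highest and KO2 replicate 1 the lowest, and the difference of KO2 against CT was -0.45 with and 0.03 without that library. AJUBA was at 14.0, 4.21 and 11.2 CPM in CT, 13.2, 26.2 and 14.3 CPM in KO1 and 0, 12.6 and 20.1 CPM in KO2. AJUBA in KO2 against CT was 0.18 (SE 0.92) with and 0.73 (SE 0.55) without KO2 replicate 1, which had no AJUBA count. AXL was at 37.5, 43.2 and 30.9 CPM in CT, 20.1, 48.3 and 49.6 CPM in KO1 and 41.7, 36.2 and 26.0 CPM in KO2. KO1 replicate 1 was the lowest AXL library, and the differences from CT were 0.08 (SE 0.36, interval -0.71 to 0.87) in KO1 and -0.11 (SE 0.37, interval -0.90 to 0.68) in KO2, or -0.25 (SE 0.39) without KO2 replicate 1.

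AMOTL2 was at 12.7, 7.31 and 7.20 CPM in CT, 13.3, 8.69 and 14.4 CPM in KO1 and 25.8, 9.30 and 12.3 CPM in KO2. The highest was KO2 replicate 1, and the log2 difference of KO2 against CT was 0.78 (SE 0.52, adjusted p = 1, edgeR) with and 0.25 (SE 0.52) without it. TEAD1 was at 16.3, 10.9 and 9.60 CPM in CT, 15.4, 11.3 and 5.92 CPM in KO1 and 18.1, 10.5 and 9.19 CPM in KO2. These TEAD1 values overlapped in all 3 groups, with differences from CT of -0.18 (SE 0.52, interval -1.30 to 0.95) in KO1 and 0.03 (SE 0.52) in KO2, or -0.32 (SE 0.55) without KO2 replicate 1.

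The 10 genes lay at low to moderate levels in these cells. Per kilobase of the longest annotated transcript, the mean level over the ACTB table was 7.63 CPM for AXL, 4.23 for AMOTL2, 3.27 for AJUBA and 3.23 for CCN1. It was 2.54 for F3, 1.27 for ANKRD1, 0.907 for TEAD1, 0.839 for NT5E, 0.498 for CCN2 and 0.433 for LATS2. AJUBA and CCN1, TEAD1 and NT5E, and CCN2 and LATS2 are neighbours in this order that differ by less than the spread between libraries. The biological coefficient of variation, the spread between replicates beyond counting error, was 22.2% for AXL and 32.3% for AMOTL2 in the actin groups, but 70.9% for NT5E and 98.6% for LATS2, beside a median of 42.6% over all tested genes. In the SETD3 table it was 33.5% for AXL and 138.7% for NT5E, beside a median of 53.9%.

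**Figure D3:**
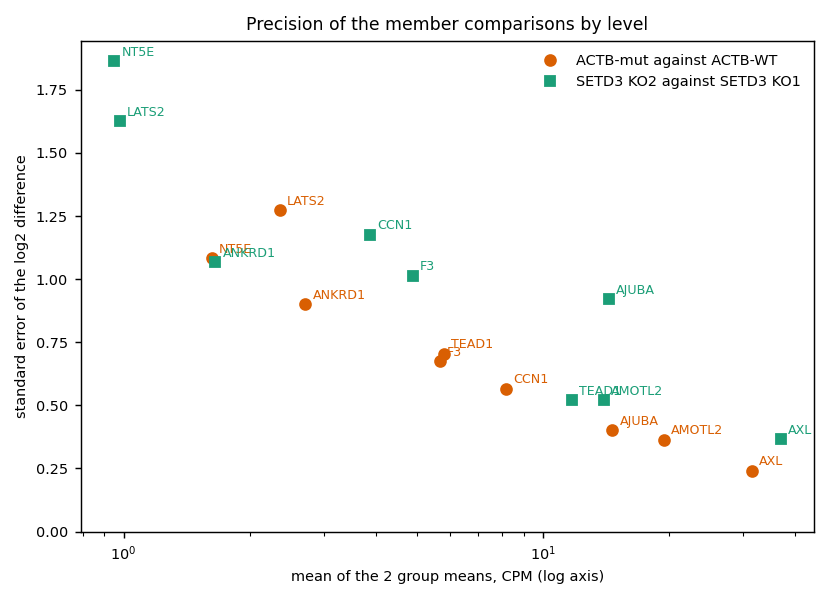
Standard error of the log2 difference (vertical axis) against the mean of both group means (CPM, log axis) for the 9 tested genes in ACTB-mut against ACTB-WT (orange circles) and SETD3 KO2 against SETD3 KO1 (green squares). The standard error is 0.24 for AXL and 1.27 for LATS2 in the first comparison, and low genes have the larger errors.

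The coactivators themselves were measured in every library. YAP1 was at 6.77, 3.31 and 6.62 CPM in Actin KO, 0.795, 8.06 and 5.05 CPM in ACTB-WT and 4.55, 3.69 and 10.0 CPM in ACTB-mut, which overlap. In the SETD3 table YAP1 was at 6.50, 5.54 and 4.55 CPM in CT, 0.148, 3.05 and 2.43 CPM in KO1 and 6.05, 6.41 and 4.14 CPM in KO2. All KO1 libraries were below all CT and KO2 libraries, with a log2 difference from CT of -1.55 (SE 0.94, interval -3.59 to 0.50, adjusted p = 0.971, edgeR). WWTR1 was at 39.8, 51.2 and 40.6 CPM in Actin KO, 36.0, 29.7 and 24.9 CPM in ACTB-WT and 35.5, 40.6 and 39.1 CPM in ACTB-mut. Its ACTB-WT libraries were below the Actin KO libraries, with a log2 difference of -0.54 (SE 0.23, interval -1.04 to -0.04, adjusted p = 0.388, edgeR). In that comparison 9.08% of all genes were lower without overlap, and 16.7% did not overlap in either direction. WWTR1 in KO1 and KO2 against CT was -0.38 (SE 0.34) and -0.45 (SE 0.34).

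Among the other genes of the pathway, none of 21 further YAP-TAZ targets was called in edgeR, where 15 were tested with the actin groups and 14 with the SETD3 groups. At an unadjusted p below 0.05 there were 1 or 2 of them in each actin comparison and 0 or 1 in each SETD3 comparison. DESeq2 called 1 of them, in ACTB-mut against Actin KO, and limma-voom 0. None of the 6 tested coactivator, TEAD and VGLL genes was called in edgeR, and none of the core kinases and their scaffolds, of which 5 were tested with the actin groups and 6 with the SETD3 groups, and each of these lists had 0 or 1 gene at an unadjusted p below 0.05 and 0 calls in DESeq2 and limma-voom. Of 25 tested upstream regulators 1 was called, in ACTB-mut against ACTB-WT. This was SCRIB, a scaffold of basolateral cell polarity, which was at 355, 321 and 383 CPM in ACTB-WT and 242, 262 and 174 CPM in ACTB-mut. In this comparison 1.24% of all genes were called. Libraries did not overlap, in either direction, for 18.1% of all genes and 5 of the 25 regulators. Every ACTB-mut library was below every ACTB-WT library for SCRIB, and SCRIB fell by 0.64 on the log2 scale (SE 0.15, adjusted p = 0.0433, edgeR). The call was kept in DESeq2 (-0.66, adjusted p = 0.0017) and limma-voom (-0.64, adjusted p = 0.0279). In edgeR it was kept without the filter on low counts (-0.64, adjusted p = 0.0049) and with DESeq2 size factors (-0.66, adjusted p = 0.0334). It was lost in edgeR with offsets for GC content and length (-0.39, adjusted p = 0.352) and in the fit to only these 2 groups (-0.64, adjusted p = 0.0995). The replicate block, given further below, also lost it. On leaving out 1 library it was lost without ACTB-mut replicate 1 (-0.70) or 3 (-0.49) or ACTB-WT replicate 1 (-0.64), 2 (-0.70) or 3 (-0.59). The adjusted p was then 0.0841 to 0.134, and the call was kept without ACTB-mut replicate 2 (-0.77, adjusted p = 0.0367). Further YAP-TAZ targets had a median log2 difference of -0.12 in ACTB-mut against ACTB-WT, beside 0.49 for the 9 genes above and 0.02 over all genes. In ACTB-WT against Actin KO these medians were closer, at -0.23, -0.27 and -0.01 in the same order. In ACTB-mut against Actin KO they were -0.14, 0.15 and 0.03.

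**Figure D4:**
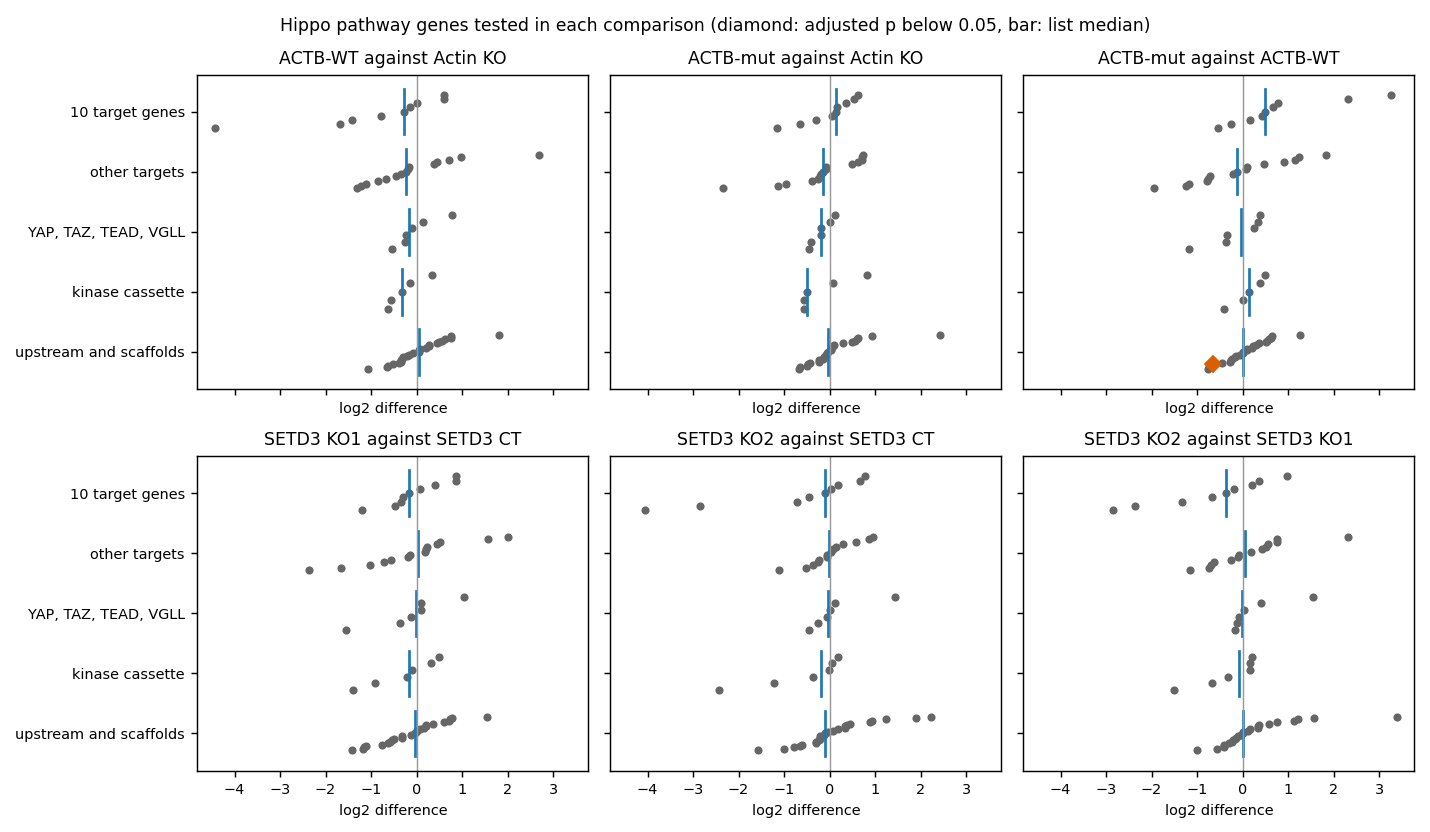
Log2 differences (horizontal axis) of the tested genes of each Hippo pathway list in the 6 comparisons, with a bar at each list's median; a diamond marks the only called gene, SCRIB, at -0.64 in ACTB-mut against ACTB-WT. All lists spread on both sides of 0 in these comparisons, and the 9 tested target genes have their median at 0.49 in that comparison.

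The genes whose levels followed CCN1 and CCN2 most closely differed between the tables. Likeness was measured as Pearson's r of log2(CPM + 1) over the 9 libraries of a table, among genes with a mean of at least 10 CPM, and is a description because the libraries share depth and group. For CCN1 the genes with the highest r were ZBTB11 (r = 0.951), TYW1 (0.919) and SPATS2 (0.919) in the ACTB table. They were CYB5D2 (0.936), PRDX4 (0.926) and DYNLL1 (0.925) in the SETD3 table. For CCN2 they included FERMT1 (0.902) and CLCC1 (0.887) in the ACTB table and were HNRNPA0 (0.893), IRX4-AS1 (0.892) and LRRC59 (0.886) in the SETD3 table.

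Reads of some of these genes were shared with other annotated genes by RSEM. Values of ANKRD1, AXL, F3 and WWTR1 were not whole numbers, within 0.005, in any of the 18 libraries, and those of AJUBA were not in 7 of 18, so their levels are less certain. AMOTL2 shares exon bases with the pseudogene RPL39P5, and AJUBA with AL132780.3, each on the same strand. The AMOTL2 values were nevertheless whole numbers in all 18 libraries.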

How the data were processed

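The values deposited by the authors were RSEM expected counts per gene, not normalised, for 18 libraries in 2 tables. They trimmed reads (Trim Galore 0.4.5, cutadapt 1.15) and counted them (RSEM 1.2.28, Bowtie2, GRCh38), per the submitters' processing notes. The annotation release and strand setting are not given in the sources used here. Expected counts were rounded and each table was fitted with its 3 groups in edgeR 4.0.16 (R 4.3.3): filterByExpr, TMM scaling and robust quasi-likelihood F tests, two-sided, with Benjamini-Hochberg adjustment over all genes tested. The SE is the absolute log2 difference divided by the square root of F. Depth was 3389502 to 11652897 counts per library. Scaling and tests were kept within a table because the tables share no control. ACTB and marker levels, replicate variation and interval widths were set side by side between the tables as descriptions. Alternatives were other size factors, no filter on low counts, DESeq2 1.42.0, limma-voom (limma 3.58.1), only the 2 groups, a replicate block, GC and length offsets from GENCODE 29, and leaving out each library. The procedure was tested on simulated counts. Changes were placed only in genes at higher levels than most of the target genes, so that run does not show what could be detected among them. The members and lists were chosen with earlier results of these data known. Named genes are all 10 members, YAP1, WWTR1, other list genes called at least once, ACTB and SETD3 as checks, and the 3 genes most like CCN1 and CCN2 in each table, of which 1 is not reported here.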

Additional observations from a re-analysis of the deposited data

How the results depend on the processing

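Low counts limit CCN2, LATS2 and NT5E, which held 0 to 8 counts in some libraries. These were not only shallow libraries. SETD3 KO2 replicate 2, with 10961268 counts in total, held 0 counts of CCN2, 0 of NT5E and 2 of LATS2. The number of target genes called changed from 0 to 1 in ACTB-WT against Actin KO without the filter on low counts and in DESeq2 (NT5E both times), and to 2 in ACTB-mut against ACTB-WT in DESeq2 (NT5E and F3). It was 0 in every other alternative run. With only the 2 groups compared, NT5E did not pass the filter in ACTB-mut against ACTB-WT, KO2 against CT and KO2 against KO1. It could not be fitted there. Of the 751 values that could be fitted for the 9 tested genes, 688 kept their direction and their side of the threshold. Another 4 passed the threshold and 59 changed sign, 40 of these 59 on leaving out 1 library. The cause was not tested.

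Counts over all genes moved more. In the order ACTB-WT against Actin KO, ACTB-mut against Actin KO and ACTB-mut against ACTB-WT, the 155, 128 and 172 called genes became 320, 371 and 402 without the filter, 428, 393 and 517 in DESeq2, and 79 to 106, 34 to 77 and 60 to 129 on leaving out 1 library. They became 195 for ACTB-mut against Actin KO in limma-voom and 104 for ACTB-mut against ACTB-WT with only the 2 groups. For KO1 against CT, KO2 against CT and KO2 against KO1, the 2, 8 and 4 calls became 58, 68 and 58 without the filter and 92, 106 and 73 in DESeq2. The first 2 became 7 and 22 with GC and length offsets, 1 and 1 with only the 2 groups, and 0 to 4 and 3 to 7 on leaving out 1 library, and KO2 against KO1 became 9 in limma-voom.

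With the replicate number as a block, calls were 89, 85 and 83 in the ACTB table and 0 and 1 for KO1 and KO2 against CT, and with GC and length offsets as well 49 for ACTB-mut against Actin KO and 66 for ACTB-mut against ACTB-WT. The block called no target gene. SCRIB in ACTB-mut against ACTB-WT was -0.65 (adjusted p = 0.109, edgeR) with the block and -0.40 (adjusted p = 0.437) with block and offsets. Correlations of same-numbered libraries were -0.161 to 0.0928 among the actin groups and -0.576 to 0.225 among the SETD3 groups, and 1 of 9 and 0 of 9 libraries were closest to their own number, so the numbers were not taken as pairing. Under the block KO1 against CT was 0.21 for NT5E and 0.044 for LATS2, KO2 against CT was -0.21 for AJUBA and ACTB-WT against Actin KO was 0.0070 for LATS2. Under the block with GC and length offsets KO1 against CT was -0.0028 for AXL, 0.14 for NT5E and 0.016 for LATS2, KO2 against CT was -0.22 for AJUBA, ACTB-WT against Actin KO was 0.030 for LATS2 and ACTB-mut against Actin KO was -0.16 for ANKRD1.

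Other sign changes were few. In limma-voom KO1 against CT was 0.18 for LATS2, KO2 against CT was -0.36 for AJUBA and -0.23 for TEAD1, and ACTB-WT against Actin KO was 0.72 for LATS2. With GC and length offsets ACTB-WT against Actin KO was 0.060 for AMOTL2 and ACTB-mut against Actin KO was -0.19 for ANKRD1. AMOTL2 in ACTB-WT against Actin KO was 0.0068 with DESeq2 size factors in edgeR, 0.0033 with only the 2 groups and 0.0054 in DESeq2.

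Leaving out 1 library at a time, the log2 difference took both signs for the following genes. In ACTB-WT against Actin KO the range was AJUBA from -0.43 to 0.066, AMOTL2 from -0.47 to 0.26 and LATS2 from -0.96 to 0.39. In ACTB-mut against Actin KO the range was ANKRD1 from -0.22 to 0.26, F3 from -0.10 to 0.92, LATS2 from -0.85 to 0.80 and TEAD1 from -1.13 to 0.057. In ACTB-mut against ACTB-WT the range was AMOTL2 from -0.12 to 0.62, CCN1 from -0.67 to 0.23 and LATS2 from -0.58 to 1.10. In KO1 against CT the range was AXL from -0.12 to 0.40, CCN1 from -0.82 to 0.038, LATS2 from -1.14 to 0.43 and TEAD1 from -0.51 to 0.12. In KO2 against CT the range was AJUBA from -0.57 to 0.73, AXL from -0.25 to 0.064, CCN1 from -0.44 to 1.23, F3 from -1.09 to 0.11 and TEAD1 from -0.32 to 0.29. In KO2 against KO1 the range was AMOTL2 from -0.16 to 0.64, ANKRD1 from -0.62 to 0.046, AXL from -0.51 to 0.011, CCN1 from -0.15 to 1.54 and TEAD1 from -0.14 to 0.53.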

Other observations

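AMOTL1, a paralog of AMOTL2 on the list of further YAP-TAZ targets, was chosen for mention after its values were seen. It was at 29.4, 28.7 and 21.0 CPM in Actin KO, 15.7, 14.2 and 14.3 CPM in ACTB-WT and 14.1, 14.9 and 11.7 CPM in ACTB-mut. Of all genes, 9.08% were lower without overlap in ACTB-WT against Actin KO and 9.16% in ACTB-mut against Actin KO. For AMOTL1, all libraries with an actin construct were below all Actin KO libraries. The log2 difference from Actin KO was -0.84 (SE 0.31, adjusted p = 0.275, edgeR) in ACTB-WT and -0.96 (SE 0.31, adjusted p = 0.197, edgeR) in ACTB-mut, with an adjusted p of 0.0394 for ACTB-mut in DESeq2. Both differences rest on the same 3 Actin KO libraries. AMOTL2 differed by less than its spread in the same comparisons.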
